A study of Mus musculus with 8 samples.

Results

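The Fc receptors and their signalling chain, as described here, are 6 genes: the receptor genes Fcgr1, Fcgr3, Fcgr4 and Fcgr2b, the shared chain Fcer1g and the kinase Syk. They were read in mouse hippocampus as every probe set annotated to one of these symbols alone, 14 probe sets of the 45037 tested, and as 6 genes of the 18193 that had a probe set naming them alone. The probe set that was brightest in mean over all arrays stood for its gene, and the others are given beside it. The rule used names only and no measured value other than this brightness.

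Each of the 4 groups held 2 arrays of hippocampal RNA from female mice. MT8m was the Tg6799 transgenic (mutant, MT) group at 8 months of age, LM8m its littermate control (LM) at 8 months, MT4m the mutant at 4 months and LM4m the littermate at 4 months. Tg6799 mice carry human amyloid precursor protein and presenilin 1 transgenes with familial Alzheimer's disease mutations, which the neuronal Thy1 promoter drives, so that the transgenes are not those of the cells that usually carry Fc receptors. The labels give Tg6799 as the strain of both genotypes, name no treatment, and do not say whether an array held 1 animal or a pool, so the p-values measure only the spread between arrays.

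Fcγ receptors bind the constant part of IgG and so tie antibody-coated material to phagocytes, which in brain tissue are chiefly microglia and the macrophages of vessels and meninges. The activating receptors Fcgr1 (CD64), Fcgr3 (CD16) and Fcgr4 have little signalling capacity alone. They pair with the Fcer1g product, the common γ chain, whose immunoreceptor tyrosine-based activation motif (ITAM) is phosphorylated by Src family kinases and then docks Syk. Fcgr2b (CD32) is the inhibitory receptor: it carries an inhibitory motif (ITIM) of its own, needs no γ chain, and recruits the lipid phosphatase encoded by Inpp5d.

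The first bases of these genes are shown because 3 of the 4 receptor genes share a short motif next to their start. Each window runs from -100 to 50 around the annotated start in RefSeq on GRCm38.p6, written 5′ to 3′ on the gene's own strand, with the core sequence recognised by the myeloid factor PU.1 (GAGGAA, or TTCCTC on the other strand) in capitals. The windows were chr1:171059354-171059503 (minus strand) for Fcgr3, chr3:96293920-96294069 (minus strand) for Fcgr1, chr1:171018826-171018975 (plus strand) for Fcgr4, chr1:171234300-171234449 (minus strand) for Fcer1g and chr1:170976022-170976171 (minus strand) for Fcgr2b.
Fcgr3: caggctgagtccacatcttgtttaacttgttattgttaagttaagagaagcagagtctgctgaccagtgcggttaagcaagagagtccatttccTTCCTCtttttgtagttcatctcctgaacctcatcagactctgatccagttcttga
Fcgr1: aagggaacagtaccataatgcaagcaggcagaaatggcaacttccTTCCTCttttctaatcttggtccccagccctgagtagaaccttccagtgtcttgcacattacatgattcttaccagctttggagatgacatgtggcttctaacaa
Fcgr4: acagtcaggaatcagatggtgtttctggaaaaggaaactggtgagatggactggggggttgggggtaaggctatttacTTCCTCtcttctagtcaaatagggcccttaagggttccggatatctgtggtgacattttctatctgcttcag
Fcer1g: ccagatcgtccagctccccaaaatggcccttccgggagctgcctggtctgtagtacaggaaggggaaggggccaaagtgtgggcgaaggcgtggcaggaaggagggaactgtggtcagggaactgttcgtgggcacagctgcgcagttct
Fcgr2b: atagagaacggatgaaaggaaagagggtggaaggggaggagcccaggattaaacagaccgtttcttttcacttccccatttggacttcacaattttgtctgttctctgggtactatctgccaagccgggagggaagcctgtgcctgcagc
All 3 matches in these windows were on the opposite strand, starting at position -6 in Fcgr3, -55 in Fcgr1 and -22 in Fcgr4. Of all 32851 RefSeq windows of 300 bases, 28.3% held the PU.1 core on either strand. Neither the 300 bases of Fcer1g nor those of Fcgr2b held it, and of the 2 annotated starts of Syk only the second did, at -9 on the gene's strand. The AP-1 motif (TGANTCA), the E-box (CACGTG) and the TATA box (TATAAA), searched on both strands and held by 7.81%, 7.15% and 13.6% of all windows, were found near no start of the 6 genes. A match describes the letters and is not a binding site measured here. Of the 6 genes, Fcgr2b, Fcgr4, Fcgr3 and Fcer1g lie close together on chromosome 1, Fcgr1 lies on chromosome 3 and Syk on chromosome 13.

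The values were deposited on a log2 scale between 0.98 and 12.83, the arrays correlated with each other at 0.985 to 0.993, and precision is limited by having 2 arrays a group. Neuronal markers of the hippocampus were bright, with a list mean between 7.57 and 8.12 on the 8 arrays. One library went against its label. Thy1, the gene whose promoter drives the transgenes, read 9.90 and 11.79 on the MT8m arrays, against 9.92 and 9.53 on the LM8m arrays, and 11.73 and 11.82 on the MT4m arrays, against 9.96 and 9.76 on the LM4m arrays. The library labelled MT8m replicate 1 therefore read like a littermate for Thy1, and it did so for Cst7, a gene of plaque-associated microglia, at 1.75, against 2.08 and 2.14 on the LM8m arrays. The results of the 6 genes that rest on it are given with and without it. Because that library was singled out by its values, the results without it are not independent evidence, and its group then has 1 array that is assumed to vary like the others.

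Fcer1g and Fcgr3 were higher on 3 of the 4 MT arrays than on every LM array, Fcgr1 showed a smaller difference of the same direction, Fcgr2b differed by an amount that depended on the probe set, and Fcgr4 and Syk gave values that overlapped between the genotypes. With all 8 arrays none of the 6 genes passed the test. Without the library labelled MT8m replicate 1, Fcer1g and Fcgr3 were 4.11-fold and 4.12-fold higher in MT than in LM hippocampus, averaged over both ages, and both passed it. These sizes rest on MT8m replicate 2: without that array instead, the averaged log2 differences of Fcer1g and Fcgr3 were 0.54 and 0.78 and neither passed (limma adjusted p = 0.426 and 0.719). Directions follow the GEO labels, with which Thy1 goes. The study's own published gene tables give these arrays the opposite genotype names, and the directions given here oppose those tables.

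**Figure D1:**
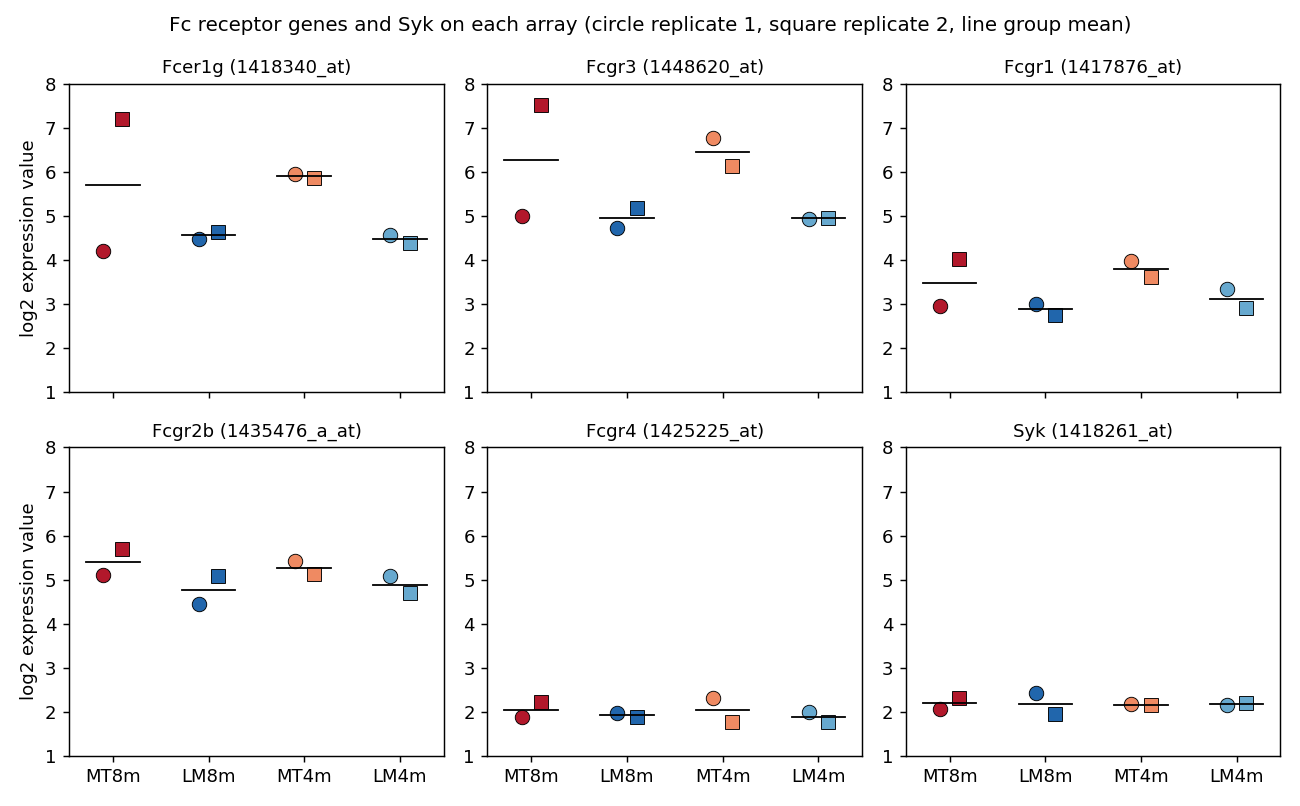
Each panel plots the log2 expression value (y axis) of the probe set standing for 1 of the 6 genes against the group (x axis); replicate 1 is a circle, replicate 2 a square, and the short line marks their mean. Fcer1g and Fcgr3 reach 7.20 and 7.52 on MT8m replicate 2. MT8m replicate 1 sits among the LM arrays for Fcgr3 and below them for Fcer1g, and Syk and Fcgr4 stay near 2 in every group.

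The γ chain gene Fcer1g (1418340_at) read 4.21 and 7.20 on the MT8m arrays, against 4.47 and 4.63 on the LM8m arrays. At 4 months it read 5.96 and 5.86 on the MT4m arrays, against 4.56 and 4.39 on the LM4m arrays. The library labelled MT8m replicate 1 was the lowest of all 8 and MT8m replicate 2 the highest, so the 8-month groups overlapped, whereas the 4-month groups stood clearly apart. Group means were 5.91 ± 0.07 in MT4m, 5.70 ± 2.11 in MT8m, 4.55 ± 0.11 in LM8m and 4.47 ± 0.12 in LM4m (SD, n = 2 each). MT4m and MT8m, and likewise LM8m and LM4m, did not differ beyond their spread.

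The genotype difference of Fcer1g, MT minus LM, was 1.15 ± 0.74 at 8 months, 1.44 ± 0.74 at 4 months and 1.29 ± 0.52 averaged over the ages (log2 ± SE, limma adjusted p = 1, 0.944 and 0.853). The spread of the MT8m pair enters all these errors. With that library left out it came to 2.64 ± 0.16 at 8 months, 1.44 ± 0.13 at 4 months and 2.04 ± 0.10 averaged (limma adjusted p = 0.00427, 0.0458 and 0.00146). For Thy1 the 4 arrays of the 4-month difference went with their GEO labels, which the study's own gene tables oppose. Fitted alone, those 4 arrays gave 1.44 ± 0.13 and a limma adjusted p = 0.0483, a call close to the threshold of 0.05. In that fit 0.0178% of all probe sets were called higher, and Fcer1g was the only one of the 6 genes among them. Leaving out MT8m replicate 1, MT8m replicate 2 or both gives the same fit at 4 months, because a lone MT8m array adds nothing to the spread. These omissions are therefore 1 result and not separate support. With both MT8m arrays in the fit Fcer1g was not called at 4 months.

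Fcgr3 (1448620_at), the low-affinity activating receptor for immune complexes, followed Fcer1g closely. It read 5.0 and 7.52 on the MT8m arrays, against 4.72 and 5.17 on the LM8m arrays. At 4 months it read 6.76 and 6.13 on the MT4m arrays, against 4.91 and 4.96 on the LM4m arrays. The 4-month groups were again apart and the 8-month groups overlapped through a single MT8m array. The genotype difference was 1.31 ± 0.65 at 8 months, 1.51 ± 0.65 at 4 months and 1.41 ± 0.46 averaged (limma adjusted p = 1, 0.944 and 0.817). Without the library labelled MT8m replicate 1 it was 2.58 ± 0.29 at 8 months and 2.04 ± 0.18 averaged (limma adjusted p = 0.0252 and 0.00865). At 4 months Fcgr3 passed in neither fit, with limma adjusted p = 0.281 without that library and 0.205 for the 4-month arrays alone, although its difference of 1.51 there was no smaller than that of Fcer1g.

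Fcgr1, the high-affinity receptor for monomeric IgG, had 2 probe sets that did not tell the same story. The brighter (1417876_at) read 2.94 and 4.02 on the MT8m arrays, against 3.00 and 2.74 on the LM8m arrays. At 4 months it read 3.96 and 3.61 on the MT4m arrays, against 3.33 and 2.91 on the LM4m arrays. The 3 MT arrays other than MT8m replicate 1 were thus the highest of the 8. The difference was 0.61 ± 0.32 at 8 months, 0.67 ± 0.32 at 4 months and 0.64 ± 0.23 averaged, and averaged without that library it was 0.91 ± 0.15 (limma adjusted p = 1, 0.944, 0.845 and 0.101). The dimmer probe set (1436625_at) read 2.5 and 2.91 on the MT8m arrays, against 2.90 and 3.04 on the LM8m arrays, and 3.22 and 2.96 on the MT4m arrays, against 2.77 and 2.44 on the LM4m arrays, so that its group means ran opposite ways at the 2 ages. It correlated with the brighter one at r = 0.526 over the 8 arrays, and which of them measures the transcript better was not tested.

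Fcgr4 (1425225_at), the mouse receptor for IgG2a and IgG2b, was dim. Its values were 1.87 and 2.21 on the MT8m arrays, against 1.98 and 1.88 on the LM8m arrays, and 2.32 and 1.77 on the MT4m arrays, against 2.00 and 1.76 on the LM4m arrays. MT4m replicate 1 was the highest and the groups overlapped at both ages. The averaged genotype difference was 0.14 ± 0.14, and 0.23 ± 0.15 without the library labelled MT8m replicate 1 (limma adjusted p = 0.913 and 0.762). Its mean of 1.97 lay below 2.47, the median of all probe set means, and with no detection calls among the values used it cannot be said whether the transcript was measured above background.

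The inhibitory receptor Fcgr2b had 5 probe sets, and its brightest one moved least among the 4 brighter ones. That probe set (1435476_a_at) read 5.11 and 5.69 on the MT8m arrays, against 4.44 and 5.08 on the LM8m arrays, and 5.41 and 5.13 on the MT4m arrays, against 5.08 and 4.69 on the LM4m arrays. Its MT arrays lay above the LM arrays at each age and over both ages together, MT8m replicate 1 included, by as little as 5.11 against 5.08. The difference was 0.63 ± 0.27 at 8 months, 0.39 ± 0.27 at 4 months and 0.51 ± 0.19 averaged (limma adjusted p = 1, 0.944 and 0.853), and 0.66 ± 0.19 averaged without that library (limma adjusted p = 0.41).

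The other probe sets of Fcgr2b set MT8m replicate 2 far apart. Probe set 1435477_s_at read 2.40 and 6.22 on the MT8m arrays, against 2.48 and 3.18 on the LM8m arrays, and 4.51 and 3.89 on the MT4m arrays, against 3.59 and 3.02 on the LM4m arrays. Probe set 1451941_a_at read 2.35 and 5.25 on the MT8m arrays, against 2.22 and 2.74 on the LM8m arrays, and 3.22 and 3.21 on the MT4m arrays, against 2.22 and 2.37 on the LM4m arrays. Probe set 1455332_x_at read 3.12 and 5.24 on the MT8m arrays, against 3.12 and 3.61 on the LM8m arrays, and 4.02 and 3.59 on the MT4m arrays, against 3.27 and 2.79 on the LM4m arrays. In all 3 the library labelled MT8m replicate 1 read like a littermate and MT4m was higher than LM4m without overlap. Their averaged differences were 1.19 ± 0.69, 1.12 ± 0.51 and 0.80 ± 0.40 in this order, none called (limma adjusted p = 0.858, 0.853 and 0.853). Without MT8m replicate 1 they were 2.15 ± 0.24, 1.85 ± 0.14 and 1.32 ± 0.19, and the first 2 passed (limma adjusted p = 0.0216, 0.00567 and 0.0537).

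The size of the Fcgr2b difference therefore ranged over the 4 brighter probe sets, without that library, between 0.66 and 2.15 in log2, and the rule's choice of the brightest gave the smallest. Affymetrix marks probe sets ending in _s_at or _x_at as able to share probes with related transcripts, and Fcgr2b and Fcgr3 are close paralogs. Whether these values hold signal of both genes was not tested. Probe set 1451941_a_at has neither ending and differed by 1.85 without that library. Over the 8 arrays 1435477_s_at correlated with Fcer1g at r = 0.952 and 1451941_a_at at 0.947, against 0.784 for the brightest one. The remaining probe set (1447622_at) was among the dimmest on the array, with values of 1.15 to 1.58.

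**Figure D2:**
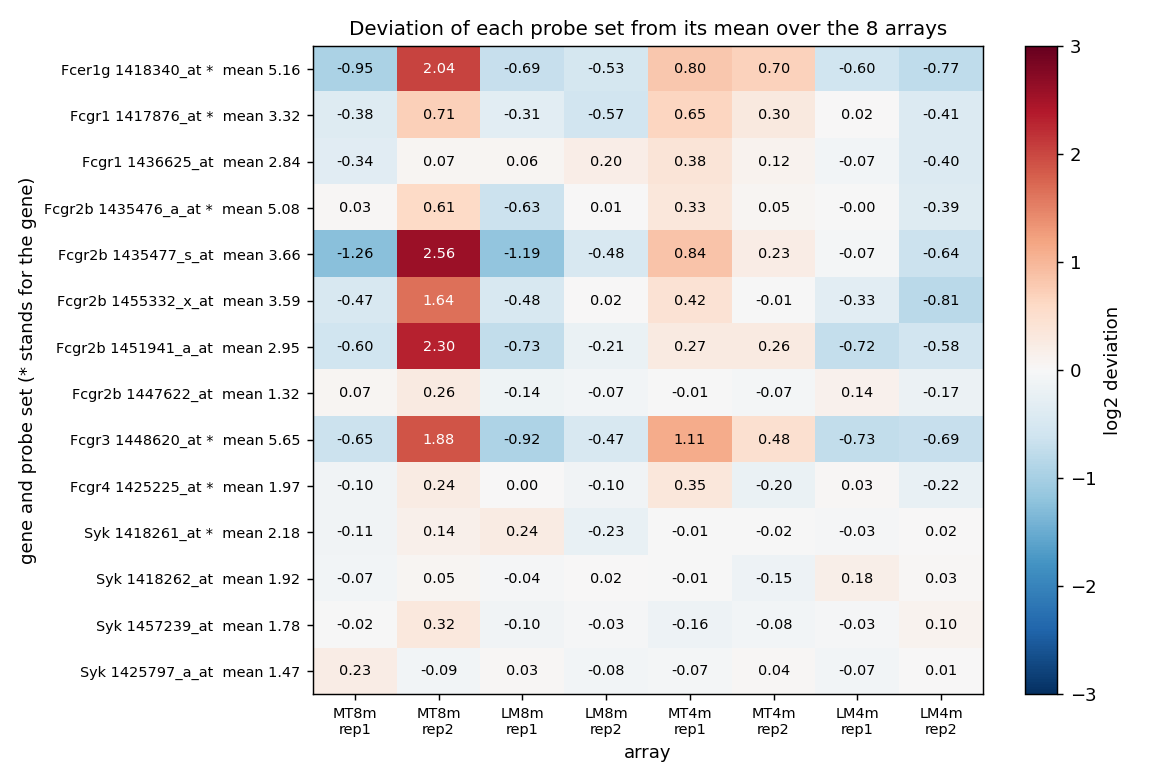
Deviation in log2 (colour and printed number) of each of the 14 probe sets (rows) from its own mean over the 8 arrays (columns, MT left of LM at each age). Fcer1g, Fcgr3 and 3 of the Fcgr2b probe sets are far above their means on MT8m replicate 2, at 1.64 to 2.56, while all 4 Syk rows stay within 0.32 of theirs.

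Syk, the tyrosine kinase that docks on the phosphorylated γ chain, showed no such pattern on any of its 4 probe sets. The brightest (1418261_at) read 2.07 and 2.32 on the MT8m arrays, against 2.42 and 1.95 on the LM8m arrays, and 2.16 and 2.15 on the MT4m arrays, against 2.14 and 2.19 on the LM4m arrays. The highest and the lowest value both fell in LM8m. The genotype difference was 0.01 ± 0.17 at 8 months, -0.01 ± 0.17 at 4 months and 0.00 ± 0.12 averaged (limma adjusted p = 1, 0.996 and 1), and 0.06 ± 0.13 averaged without MT8m replicate 1 (limma adjusted p = 0.935). Its other probe sets lay between 1.38 and 2.10. All 4 were below the median brightness of 2.47, so a change of the transcript may lie under what these probe sets resolve.

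**Figure D3:**
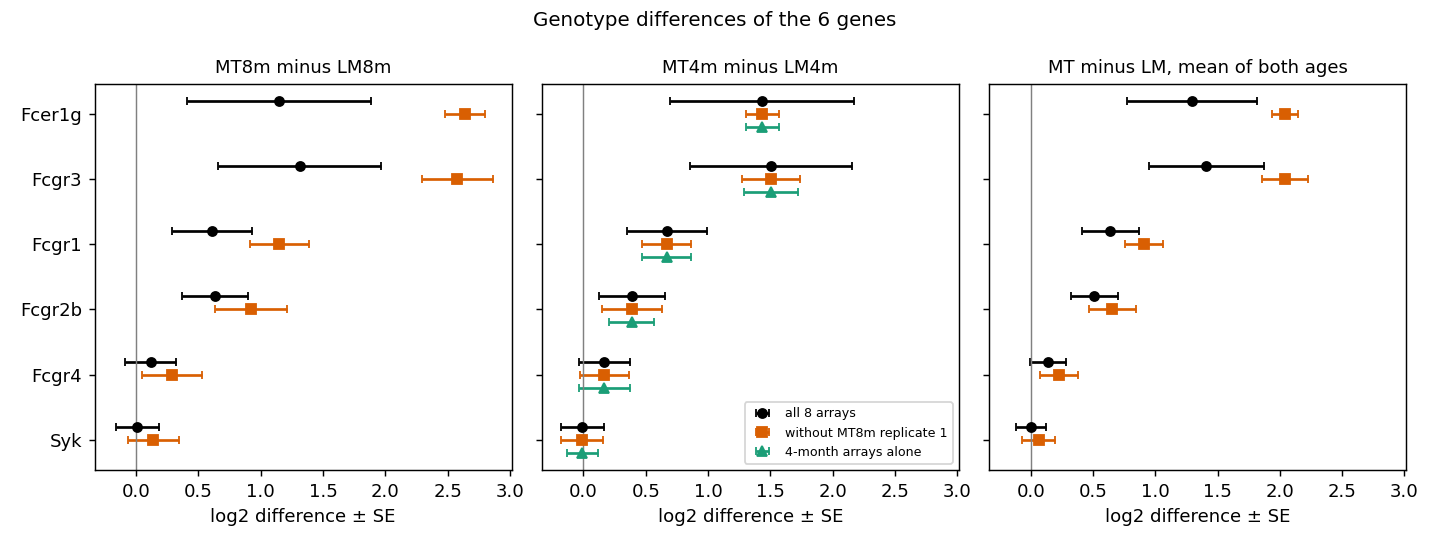
Log2 difference ± SE (x axis) of each gene (rows) for MT8m minus LM8m, MT4m minus LM4m and the mean of both, with all 8 arrays (black), without MT8m replicate 1 (orange) and for the 4-month arrays alone (green). At 8 months the Fcer1g difference is 1.15 with all arrays and 2.64 without the 1 library, and the error bars shrink, while Syk stays at 0 within its error.

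Read as a set, the 6 genes had a median genotype difference of 0.62 at 8 months, 0.53 at 4 months and 0.57 averaged, against a median of -0.01 over all genes for the averaged difference. With all 8 arrays 0 of the 6 passed in limma at 8 months, at 4 months or averaged, and 1, 1 and 4 of them had an unadjusted p under 0.05, against 3.39%, 4.86% and 5.76% of all probe sets. Over all probe sets 0.02%, 0% and 0.06% passed in the same 3 comparisons, and 0 of 6 is too close to such a background to be a result about the members. At 4 months 4 of the 6 (Fcer1g, Fcgr3, Fcgr1 and Fcgr2b) had both MT arrays above both LM arrays, against 17.1% of all probe sets. At 8 months this held for Fcgr2b alone, against 15.2% of all probe sets, and over both ages again for Fcgr2b alone, against 1.46%. Without the library labelled MT8m replicate 1 it held over both ages for 4 of the 6, against 3.59%. In that fit 2 of the 6 were called higher at 8 months (0.184% of all probe sets), 1 at 4 months (0.0111%) and 2 averaged (0.24%).

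Age moved none of the 6 genes past the threshold in either genotype. In littermates, LM8m minus LM4m was 0.08 ± 0.74 for Fcer1g and 0.01 ± 0.65 for Fcgr3, and the arrays of both ages overlapped for all 6 genes. In mutants, MT8m minus MT4m was -0.21 ± 0.74 for Fcer1g and -0.18 ± 0.65 for Fcgr3 with all arrays, and the mutant pair at 8 months enclosed the pair at 4 months. Without MT8m replicate 1 the same differences were 1.29 ± 0.16 and 1.08 ± 0.29 and failed the correction (limma adjusted p = 0.109 and 0.48), and they rest on a single 8-month array. The interaction, the genotype difference at 8 months minus that at 4 months, was -0.29 ± 1.05 for Fcer1g with all arrays and 1.21 ± 0.21 without that library (limma adjusted p = 1 and 0.585). Neither the age comparisons (0% of all probe sets for MT, LM and the average) nor the interaction (0%) called any probe set with all 8 arrays, and 0 of the 6 genes had an unadjusted p under 0.05 in them. In the test over the 4 classes together, which the study's methods name, 0 of the 6 passed and 0 had an unadjusted p under 0.05, against 0.0133% of all probe sets passing. Without MT8m replicate 1, Fcer1g and Fcgr3 passed it (limma adjusted p = 0.0104 and 0.0483), as did 0.129% of all probe sets.

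The rest of the pathway was read from lists of genes by role. Among the pathway lists, that of other receptors and adaptors linked to an ITAM or a related motif held the genes with the largest averaged differences. Averaged over the ages, 0 of 17 measured genes of this list were called with all arrays, against 0.06% of all probe sets. Their median was 0.12, against -0.01 over all genes. Without the library labelled MT8m replicate 1 it was 0.17, against -0.02. Clec7a, the β-glucan receptor Dectin-1, differed by 2.37 ± 0.79 with all arrays and by 3.42 ± 0.36 without that library. Tyrobp, the adaptor DAP12 that does for Trem2 what the γ chain does for the Fcγ receptors, differed by 1.88 ± 0.57 and 2.65 ± 0.22. Trem2 itself differed by 1.87 ± 0.60 and 2.70 ± 0.21, and Itgb2, the β2 integrin chain, by 1.09 ± 0.46 and 1.74 ± 0.14 (limma adjusted p without that library 0.0153, 0.00623, 0.00571 and 0.00599). The arrays that were high for Fcer1g were those that were high for Tyrobp, which read 6.41 and 9.51 on the MT8m arrays, against 6.22 and 6.63 on the LM8m arrays, and 9.03 and 8.30 on the MT4m arrays, against 6.70 and 6.19 on the LM4m arrays.

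Below Syk, 0 of 28 measured adaptors and effectors were called with or without that library, while 22 of the 28 averaged differences were above 0, at a median of 0.12. The largest were Pik3ap1, an adaptor for phosphoinositide 3-kinase, at 0.66 ± 0.32 with all arrays and 1.07 ± 0.18 without that library, Blnk, a Syk substrate, at 0.64 ± 0.26, Prkcd at 0.39 and Plcg2, the phospholipase that Syk signalling activates, at 0.36 ± 0.15 with all arrays, none called. Of 4 measured Src family kinases none was called, at a median of -0.07, with Src itself at -0.31 and Fgr at -0.19. In the list of inhibitory signalling 11 of 13 averaged differences were above 0, at a median of 0.09, none called with all arrays. Its largest difference was that of Ptprc, the leukocyte tyrosine phosphatase CD45, which is not particular to inhibition and is not read here as inhibitory. Ptprc differed by 1.12 ± 0.53 with all arrays (limma adjusted p = 0.853) and by 1.86 without that library. Inpp5d, the phosphatase that Fcgr2b recruits, differed by 0.59 ± 0.28 and 0.97 ± 0.14 and was called in neither fit (limma adjusted p = 0.853 and 0.0582). Sirpa at 0.32 and Dok3 at 0.28 followed with all arrays.

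Among the other Fc receptors no difference passed the test. Of 10 measured, 5 were above 0 and none was called, at a median of 0.00, and the largest difference was that of Fcgrt, the neonatal Fc receptor that carries IgG across cells, at -0.36 ± 0.23 (limma adjusted p = 0.864). Fcer1a, the IgE-binding chain that also pairs with the γ chain, read 1.28 to 1.71 over the 8 arrays. The ligands, immunoglobulin chains and pentraxins, gave a median of 0.02 over 6 measured genes of the 11 listed, none called. Several immunoglobulin genes were not named by a probe set of their own and were not analysed here.

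In bulk hippocampus, more cells of a type and more RNA per cell cannot be told apart. The Fcer1g and Fcgr3 values moved with the microglial markers. All 11 measured of the 12 listed, among them Cx3cr1, P2ry12, Tmem119 and Csf1r, had an averaged difference above 0. Trem2, Siglech and Itgam among them also stand in the list of ITAM-linked receptors, so those lists are not separate. The microglial list had a median of 1.01 with all arrays, none called, and 1.42 without MT8m replicate 1. The list's mean level was 4.40 and 6.30 on the MT8m arrays, against 4.32 and 4.66 on the LM8m arrays, and 5.69 and 5.38 on the MT4m arrays, against 4.53 and 4.39 on the LM4m arrays. It correlated over the 8 arrays with Fcgr3 at r = 0.995, Fcer1g at 0.989, Fcgr1 at 0.912, Fcgr2b at 0.848, Fcgr4 at 0.653 and Syk at 0.205, and without MT8m replicate 2 the first 2 were 0.99 and 0.979. These are descriptions over arrays that share groups, and the microglial part in the members' differences was not tested.

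Markers of other cells that carry these receptors gave smaller median differences. The markers of perivascular and meningeal macrophages, with Mrc1, Cd163, Lyve1 and F13a1 among the 10, had a median of -0.16 and a mean level of 2.16 to 2.21 on the 4 MT arrays, against 2.14 to 2.68 on the 4 LM arrays. Lists for monocytes, neutrophils, mast cells and basophils, B cells and T and NK cells held 4, 7, 8, 5 and 7 measured genes, had medians of 0.11, 0.07, -0.06, 0.09 and 0.00 in this order, and none of their genes was called. Their mean levels lay between 1.89 and 2.68 on every array. Many of these and of the macrophage markers were dim, such as S100a8 at a mean of 1.68, Cd3g at 1.57 and Clec10a at 1.58. These lay below the median of 2.47, so a change may lie under what such probe sets resolve. Choroid plexus markers separated the genotypes the other way, with a median of -2.11. With all arrays 8 of 10 were called lower in MT, against 0.06% of all probe sets called. Their deviation was -1.07 and -1.20 on the MT8m arrays, against 0.83 and 1.90 on the LM8m arrays. This list thus put MT8m replicate 1 with the mutants where Fcer1g, Fcgr3 and Fcgr1 did not, while the brightest Fcgr2b probe set narrowly did. The part of the choroid plexus in the members' differences was not tested.

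**Figure D4:**
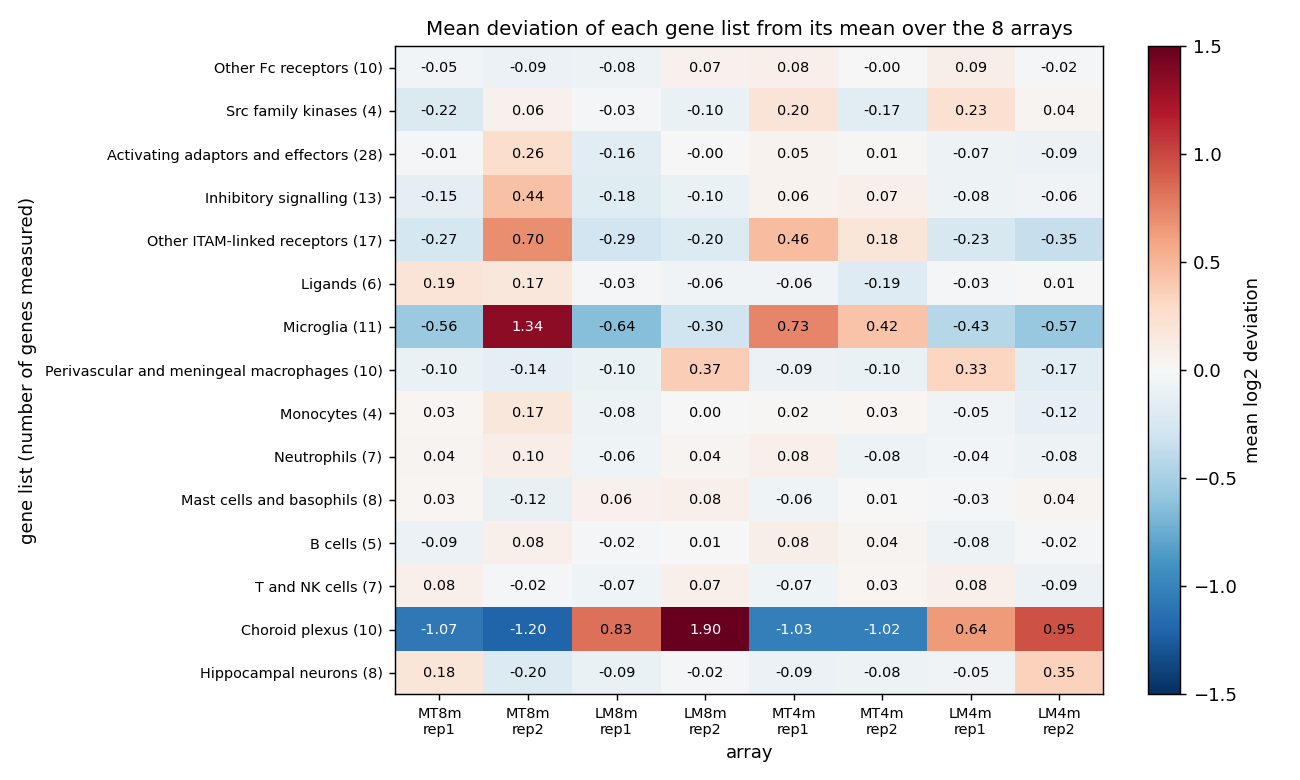
Mean deviation in log2 (colour and printed number) of each gene list (rows, with the number of genes measured) from its mean over the 8 arrays (columns). The microglial row reads 1.34 on MT8m replicate 2 and -0.56 on MT8m replicate 1, while the rows of the other blood and immune cells lie within 0.20 of 0 apart from the macrophages.

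Among themselves, Fcer1g and Fcgr3 correlated at r = 0.978 over the 8 arrays, both correlated with Fcgr1 at 0.903, Fcgr3 with Fcgr2b at 0.849, and Syk with the other 5 at -0.211 to 0.349. Of all genes, those most like Fcer1g were Csf1r (r = 0.993), Itgb2 and C1qa (0.986 each), Cd68 (0.984) and Mpeg1 (0.983). Those most like Fcgr3 were Plek (0.994), Aif1 and Mpeg1 (0.993 each), Cd68 (0.99) and Clec7a (0.988). Most of these are names known from microglia and macrophages. Fcgr2b was most like Adgre1 (0.985), the macrophage marker F4/80. Next came 2210409D07Rik (0.971), Zfp758 (0.948), the microglial gene Tmem119 (0.943) and Itprip (0.939). For Fcgr1 the first 5 were Gpr137b-ps (0.977), Hexa and Mgat5 (0.965 each), Itgb5 (0.962) and Hhex (0.953). Il3ra (0.968) was the first for Fcgr4, with an averaged difference of 0.15, and the 5 most like Syk included Epb41l4b (0.934), with 0.08.

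Genes lying among the members on the chromosome gave differences of either sign. Between Fcgr3 and Fcer1g on chromosome 1, Cfap126, a cilium gene, had an averaged difference of -0.64 ± 0.17, Sdhc, a subunit of succinate dehydrogenase, of -0.26 ± 0.10, and Pcp4l1 of -0.85 ± 0.09, called lower (limma adjusted p = 0.719, 0.853 and 0.0223). Nr1i3, Tomm40l and Apoa2, which lie next before Fcer1g, differed by 0.10, -0.04 and -0.07. Fcgr4 lies between Fcgr2b and Fcgr3 and differed by 0.14 ± 0.14, against 0.51 ± 0.19 and 1.41 ± 0.46 for those neighbours.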

How the data were processed

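RNA of 8 hippocampal samples was hybridised to GeneChip Mouse Genome 430 2.0 arrays. The authors normalised the 8 arrays together by RMA in R with affy, whose version is not given in the sources used here. The deposited values are log2, have array-wide shifts removed and carry no detection call. Of 45101 probe sets, 64 controls were left out. Probe sets were named from the platform annotation: 34945 had 1 symbol, 932 several and 9160 none, and 34741 of the first matched RefSeq by Entrez identifier. A group-means model was fitted over all 45037 with limma 3.58.1 (R 4.3.3, lmFit and eBayes, 2-sided, 4 residual degrees of freedom, Benjamini-Hochberg over all probe sets, called at 0.05), after a test on simulated data. Named beyond the members were up to 4 genes per list with the largest averaged genotype difference, the 5 genes most correlated with each member, list markers and chromosomal neighbours. Members and lists were chosen with earlier results of these data known. Alternatives were quantile and cyclic loess normalisation, a brightness filter, a trended robust prior, 1 probe set per gene, 2 groups alone, each array left out, a replicate block and other probe sets. MicroRNA reads of the study were not used here.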

Additional observations from a re-analysis of the deposited data

Results flagged for a closer look

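Of the 14 probe sets, 2 that do not stand for their gene had arrays that moved wholly one way in 1 group and the other way in its counterpart. For Syk 1457239_at the genotype difference ran opposite ways at 8 and 4 months, and so did the age difference in MT and LM, with an interaction of 0.37 ± 0.21 (log2 ± SE, limma adjusted p = 1). For Fcgr1 1436625_at the 8-month arrays were lower than the 4-month arrays in MT and higher in LM, with an interaction of -0.75 ± 0.26 (limma adjusted p = 1). The interaction test of limma passed for neither. Of all 45037 probe sets, 6824 had both MT arrays above both LM arrays at 8 months, and 8589 had them below at 4 months. In MT, 7451 had both 8-month arrays below both 4-month arrays, and in LM 6739 had them above. The share of all probe sets separated in opposite ways was not computed, so the 2 flags are not read as a result about the members.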

How the results depend on the processing

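With all 8 arrays 0 of the 6 genes were called in every comparison, so no call could reverse. For the 4-month difference, leaving out MT8m replicate 1, MT8m replicate 2 or both is the same fit, so those settings are not separate. At 4 months the count was 1 (Fcer1g) when the 2 groups were fitted alone, 1 without both MT8m arrays (a setting chosen after seeing the data), and 0 to 1 when each array was left out in turn. The same omissions gave 0 to 2 at 8 months, 0 to 2 for the averaged genotype difference and 0 to 2 for the 4 classes. All 2s came without MT8m replicate 1. Without MT8m replicate 2 instead, the 8-month differences of Fcer1g, Fcgr3 and Fcgr1 were -0.35, 0.05 and 0.07, and the averaged differences of Fcer1g and Fcgr3 were 0.54 and 0.78, so their sizes rest on that array. Over all probe sets, the count called ranged over all alternatives between 0 and 24 at 4 months, 0 and 95 at 8 months and 5 and 142 averaged, against 0, 9 and 27. The title numbers were not taken as pairing the samples. The correlation of deviations was 0.241 in LM and -0.175 in MT, which with 2 arrays a group can neither show nor exclude pairing. With the number as a replicate block 0 members were called in the age comparisons and the interaction. Crossing the MT numbers, chosen after seeing the data, also called 0 members and 3 probe sets for age averaged. Brightness limits Syk and Fcgr4, both below the median of 2.47, and the scale's offset is unknown.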

Other observations

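A pair of genes outside the members was singled out after their values were seen. Fcrls, an Fc receptor-like gene known as a microglial marker, did not go with the other microglial genes: it read 3.97 and 3.67 on the MT8m arrays, against 3.99 and 4.45 on the LM8m arrays, and 4.88 and 4.45 on the MT4m arrays, against 4.39 and 4.37 on the LM4m arrays. Its averaged genotype difference was -0.06 ± 0.15 (limma adjusted p = 0.97), and MT8m minus MT4m was -0.84 ± 0.21 (limma adjusted p = 0.798). MT8m replicate 2, the highest array for Fcer1g, was the lowest for Fcrls. Ighm, the heavy chain of IgM, read 6.95 and 6.05 on the MT8m arrays, against 5.64 and 4.96 on the LM8m arrays, and 5.01 and 4.94 on the MT4m arrays, against 5.25 and 5.81 on the LM4m arrays. MT8m minus MT4m was 1.53 ± 0.33 (limma adjusted p = 0.758), and the array labelled MT8m replicate 1, low for Fcer1g and Fcgr3, was the highest for Ighm.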
